A study of Mus musculus with 9 samples.

Results

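The genes described here make prostanoids or receive their signal in the aorta. They are 10 genes, chosen by name: Pla2g4a, Ptgs2, Ptgis, Tbxas1, Ptges and Ptgds on the side of synthesis, and Ptgir, Tbxa2r, Ptger3 and Ptger4 on the side of the receptors. All 10 were measured, by 16 probe sets that the platform annotation pairs with that gene alone, out of 18193 genes in the table. A probe set is a group of short array oligonucleotides for 1 transcript, and each gene is described by its brightest probe set unless another is named.

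Aortas came from male mice labelled BMAL+/+ (5 arrays, F01, F04, F07, F09 and F10) or BMAL-/- (4 arrays, F02, F03, F05 and F08), both on a background only partly backcrossed to C57Bl/6J, with no age given. BMAL-/- mice lack a working Arntl, the gene of the clock transcription factor BMAL1. All animals had at least 2 weeks of 12 h light and 12 h dark, then at least 30 h of darkness, and were killed at ZT14. After perfusion the vessel was taken from the arch to beyond the femoral branches by the protocol, though the sample descriptions speak of thoracic aorta. The comparison asks which of its transcripts differ with BMAL1 at that time.

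Prostanoids are short-lived lipid signals. Phospholipase A2 frees arachidonic acid from membranes, a cyclooxygenase turns it into prostaglandin H2, and a terminal synthase then makes prostacyclin, thromboxane or a prostaglandin of the D, E or F series. In arteries prostacyclin relaxes smooth muscle and restrains platelets, thromboxane does the opposite, and prostaglandin E2 can relax or constrict according to which of its receptors a cell carries.

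Genotypes below are those of the labels, and the targeted gene did not bear them out. In BMAL+/+, Arntl read 2.76 on F01, 2.79 on F07, 2.82 on F09, 2.74 on F10 and 6.67 on F04. In BMAL-/-, it read 5.87 on F02, 6.22 on F03, 6.05 on F08 and 2.77 on F05. Its transcript was therefore higher on most arrays labelled as knockouts. The sources used here do not say whether the probe set lies in the deleted part, so it may check nothing, and every direction below is that of the labels. F04 and F05 also stood apart at Nr1d2, which encodes the clock repressor REV-ERB beta: F04 read 5.81 where its group otherwise read 10.39 to 11.69, and F05 read 11.21 where its group otherwise read 5.08 to 5.89. Npas2, a partner of BMAL1, read 8.36 on F04 and 3.40 on F05, against at most 3.40 and at least 7.90 on the others of their groups. Each result is therefore given for the 9 arrays as labelled and for the 7 arrays without F04 and F05. On those 7 arrays Nr1d2 and the clock genes Dbp and Per3 were lower in BMAL-/-, by log2 differences of -5.63, -3.59 and -3.35. Npas2 was higher there, by 4.78. As clock gene levels set F04 and F05 apart, these differences are a description. The source name of F01 says BMAL-/-, against its title. At Nr1d2 and Npas2, F01 read 11.69 and 3.37, with F07, F09 and F10 and not with F02, F03 and F08.

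Smooth muscle of the vessel wall was well represented. The 6 smooth muscle markers were brighter than at least 91.7% of all probe sets, and Myh11, the smooth muscle myosin, than 99.5%. The 6 endothelial markers ranged from 57.2% (Tie1) to 96.6% (Vwf). Transcripts of fat and heart muscle were also bright, with Ucp1 of brown fat at 99.87% and Myh6 of heart muscle at 98.0%. The other heart muscle markers lay lower, from 62.5% (Nppa) to 88.5% (Myl4). These marker genes are named after their values were seen. In whole aorta, fewer cells of a type and less RNA per cell cannot be told apart.

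The promoter windows of 3 prostanoid genes are shown first, because each holds 1 of the DNA elements through which the clock acts and because Ptgs2 and Pla2g4a are neighbours on chromosome 1 and were both lower on the arrays labelled BMAL-/- once F04 and F05 were left out. Each window is the RefSeq sequence of assembly GRCm38.p6 from 250 bases before to 50 bases after a transcription start, 5′ to 3′ on the gene's strand, with the element in capitals. Ptgs2 lies at chr1:150099781-150100080 on the plus strand, Pla2g4a at chr1:149961241-149961540 on the minus strand, and Ptgds at chr2:25469700-25469999 on the minus strand.
Ptgs2: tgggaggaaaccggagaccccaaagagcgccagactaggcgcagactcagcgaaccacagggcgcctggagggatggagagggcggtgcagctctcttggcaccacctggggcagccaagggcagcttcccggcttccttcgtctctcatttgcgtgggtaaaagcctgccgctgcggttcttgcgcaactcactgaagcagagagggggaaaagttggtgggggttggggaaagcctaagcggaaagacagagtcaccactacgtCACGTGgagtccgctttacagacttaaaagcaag
Pla2g4a: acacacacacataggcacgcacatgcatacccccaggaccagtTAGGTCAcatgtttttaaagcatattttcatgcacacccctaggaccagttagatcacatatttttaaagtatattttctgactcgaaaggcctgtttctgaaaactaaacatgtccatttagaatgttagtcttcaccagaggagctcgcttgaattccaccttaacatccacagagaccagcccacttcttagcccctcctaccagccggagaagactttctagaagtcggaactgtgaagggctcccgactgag
Ptgds: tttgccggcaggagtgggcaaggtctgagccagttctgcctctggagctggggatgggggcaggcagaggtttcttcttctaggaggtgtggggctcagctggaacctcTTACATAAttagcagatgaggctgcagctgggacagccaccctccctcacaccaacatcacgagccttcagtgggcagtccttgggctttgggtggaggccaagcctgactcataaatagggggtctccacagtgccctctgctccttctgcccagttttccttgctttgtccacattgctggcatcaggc

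The capitals in Ptgs2 are an E-box (CACGTG), the element that BMAL1 binds with its partner, from base 17 after the start. Those in Pla2g4a are the letters TAGGTCA, the core of the element bound by REV-ERB and ROR receptors, from position -207. Those in Ptgds are a D-box (TTATGNAA, read on the other strand), bound by Dbp and its relatives, from position -141, where -1 is the last base before the start. Both strands were searched, no 2 of these matches overlapped, and a further motif, CACGTT, was found in none of the 11 windows that matched 9 of the 10 genes. Ptgis had no window. The E-box, the TAGGTCA core and the D-box each stood in 1 of the 11 windows. A second window of Pla2g4a, at chr1:149922390-149922689, held none of them, and neither did the windows of the other genes. Over all 32851 RefSeq windows of this length, the E-box stood in 7.15%, the TAGGTCA core in 2.61%, the D-box in 3.38% and CACGTT in 4.68%. A match is a description of these letters and not a binding site. Between Pla2g4a and Ptgs2, RefSeq lists 2 genes, the pseudogene Gm19136 and the long noncoding RNA Ptgs2os, and no protein-coding gene.

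With the 9 arrays as labelled, none of the 10 genes differed past the threshold, an adjusted p under 0.05 in limma, and neither did any other probe set (0 of 45037, 0%). At an unadjusted p under 0.05 the count of prostanoid genes was also 0, against 8.67% of all probe sets. In no case did the groups fail to overlap, which they did at 0.773% of all probe sets. The differences, BMAL-/- minus BMAL+/+ on the log2 scale, ran from -0.79 for Ptgs2 to 0.85 for Ptgds, with 5 genes on each side and a median of -0.02, where the median of all genes was 0.03. Adjusted p values lay between 0.37 for Ptger3 and 0.97 for Ptgir. Leaving out F05 alone brought 4 genes under an unadjusted p of 0.05 (Pla2g4a, Ptgs2, Ptgis and Ptger3), against 10.8% of all probe sets. Leaving out F04 alone brought 1, Ptger3, against 23% of all probe sets.

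Without F04 and F05, 5 of the 10 genes had an unadjusted p under 0.05 and none passed after adjustment over all probe sets, of which 4 did (0.00888%). Of the 5, 3 were lower on the arrays labelled BMAL-/- (Pla2g4a, Ptgs2 and Ptgis), against 3.70% of all probe sets and 7.23% of those above the median brightness. The other 2 were higher (Ptger3 and Ptgds), against 20.0% and 7.07%. All 10 prostanoid genes lie above the median brightness. The adjusted p was 0.208 for each of the 5. The median difference of the 10 genes was -0.05, where that of all genes was 0.04. As the genes were named and the 7 arrays picked with earlier results of these data known, these counts are a description.

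The counts depended on single arrays and on their weights. With F01 counted as BMAL-/-, as its source name says, 1 of the 5 genes, Ptger3, kept an unadjusted p under 0.05 without F04 and F05, against 8.35% of all probe sets. The differences of Pla2g4a, Ptgs2 and Ptgis then shrank from -1.27, -1.94 and -0.83 to -0.50, -1.06 and -0.50. Without F08 as well, Ptgs2, Ptgis and Ptger3 passed after adjustment, as 16445 of all probe sets then did, and with array weights all 5 genes passed, among 15448 probe sets. With the 9 arrays as labelled, array weights turned the differences of Pla2g4a, Ptgs2 and Ptgis to 0.24, 0.41 and 0.17, took that of Ptger3 from 0.53 to 0.047 and that of Ptgir from 0.02 to 0.75. Centring each array on 1 median evened the background to 4.56% lower of 9.34% in all without F04 and F05, and the same 5 genes had an unadjusted p under 0.05.

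**Figure D1:**
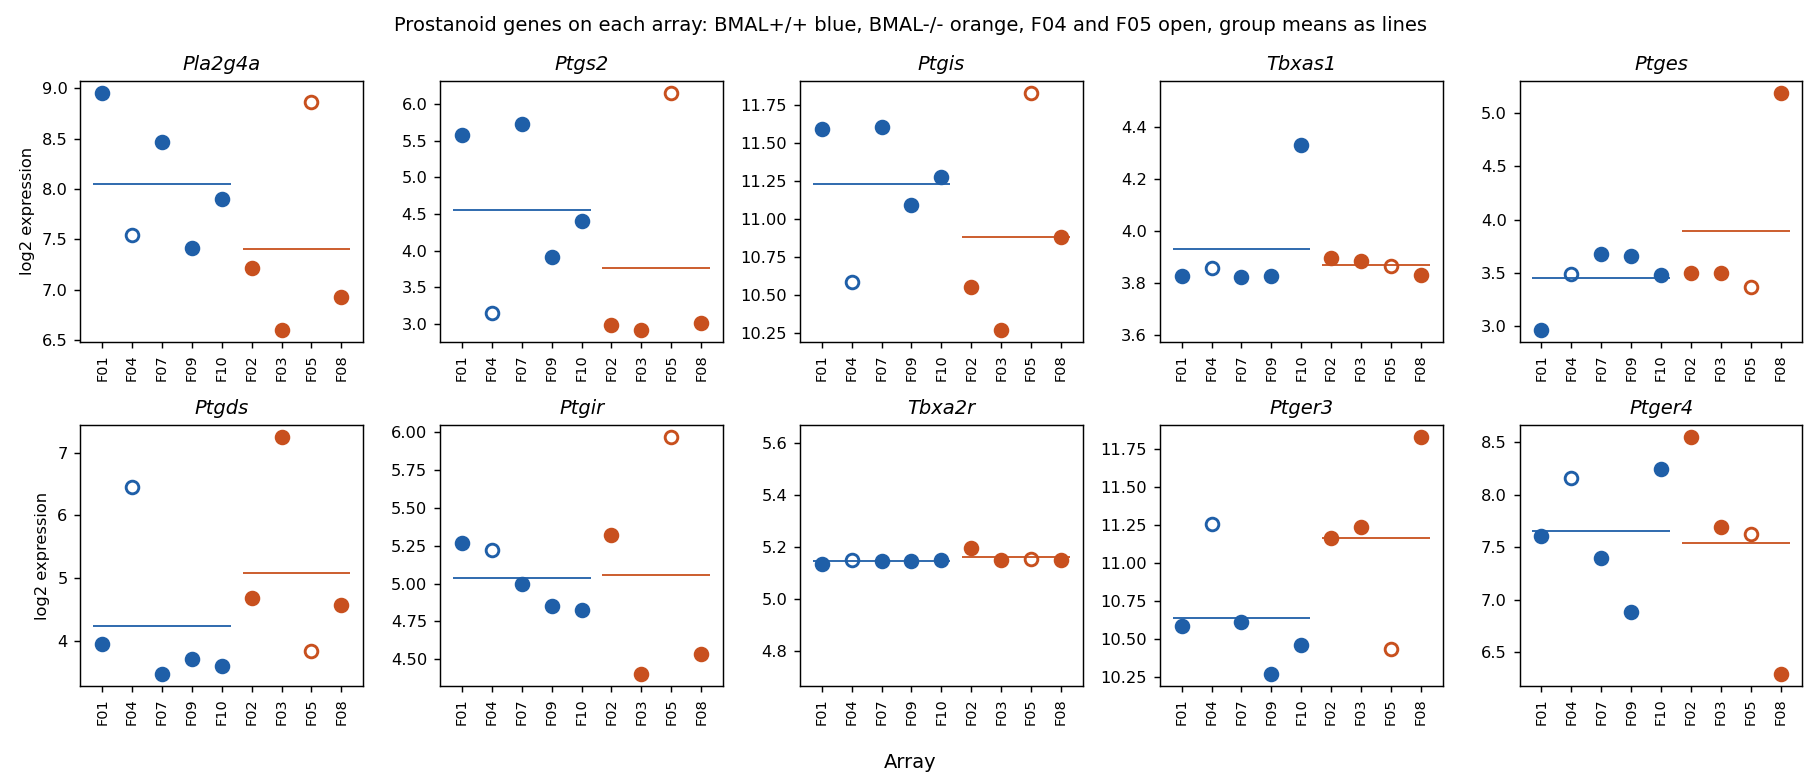
Log2 expression of each of the 10 prostanoid genes (y axis, a scale per gene) on each array (x axis), with BMAL+/+ arrays in blue, BMAL-/- arrays in orange, F04 and F05 as open circles and lines at the means of the labelled groups. For Pla2g4a, Ptgs2, Ptgis, Ptgds and Ptger3 the filled circles of the groups do not overlap; Ptgs2 read 3.15 on F04 and 6.16 on F05.

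The supply of arachidonic acid comes first. Pla2g4a encodes the cytosolic phospholipase A2 that starts the pathway. It read 8.95, 8.46, 7.42 and 7.90 on F01, F07, F09 and F10, and 7.21, 6.60 and 6.93 on F02, F03 and F08. F04 read 7.54 and F05 read 8.86. The 7 arrays did not overlap by group, though F09 stood only just above F02, while F04 lay just above F09 and F05 close to the highest BMAL+/+ array. As labelled, BMAL+/+ averaged 8.05 ± 0.65 (SD, n = 5) and BMAL-/- averaged 7.40 ± 1.0 (SD, n = 4). The difference was -0.65 ± 0.50 (SE), limma adjusted p = 0.46. Without F04 and F05 they were 8.18 ± 0.67 (SD, n = 4) and 6.91 ± 0.31 (SD, n = 3), a difference of -1.27 ± 0.38 (SE), or a level 2.41-fold higher in BMAL+/+, which did not pass (limma adjusted p = 0.208).

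Ptgs2 encodes the inducible cyclooxygenase, which makes prostaglandin H2. It read 5.58, 5.73, 3.91 and 4.41 on F01, F07, F09 and F10, and 2.98, 2.91 and 3.02 on F02, F03 and F08. F04 read 3.15 and F05 read 6.16. Without F04 the BMAL+/+ arrays were widely spread, without F05 the BMAL-/- arrays lay close together, and F05 was the highest array of all 9. As labelled the difference was -0.79 ± 0.80 (SE), limma adjusted p = 0.575, and without F04 and F05 it was -1.94 ± 0.46 (SE), limma adjusted p = 0.208. The 3 low BMAL-/- arrays and F04 lay near the dense floor of the deposited values, around the level of the median probe set, so the size of this difference is not resolved. The second Ptgs2 probe set read 2.71 at most, on F01, and lay at the floor on every array, and its differences of 0.02 and 0.03 had the opposite sign.

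Ptgis, the prostacyclin synthase, was brighter than 98.2% of all probe sets. It read 11.59, 11.61, 11.09 and 11.28 on F01, F07, F09 and F10, and 10.55, 10.27 and 10.88 on F02, F03 and F08. F04 read 10.59 and F05 read 11.83. The 7 arrays did not overlap by group, F04 lay within the range of the 3 BMAL-/- arrays and F05 above all others. The difference was -0.35 ± 0.34 (SE) as labelled, limma adjusted p = 0.556, and -0.83 ± 0.20 (SE) without F04 and F05, a level 1.77-fold higher in BMAL+/+ that did not pass (limma adjusted p = 0.208).

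These 3 genes, which were lower at an unadjusted p under 0.05 without F04 and F05, were also compared array by array. They share a direction on 7 of these 9 arrays by that choice, so some likeness follows from it and the ranks are a description. The measure of likeness was the root mean square difference between 2 genes over the 9 arrays, each gene centred on its own mean. Among 18192 genes Pla2g4a ranked 8 in likeness to Ptgs2 (0.55 log2 units) and Ptgis ranked 67 (0.77). Seen from Pla2g4a, Ptgis ranked 44 (0.39) and Ptgs2 only 331 (0.55), so the likeness of Ptgs2 and Pla2g4a was not mutual in rank. The 3 genes most like Ptgs2 were Cys1 (0.35), Gm13306 (0.41) and Lonrf1 (0.43), and those most like Pla2g4a were Mtus2 (0.23), Phldb2 (0.24) and Spon1 (0.25). Cys1 read between 8.54 and 9.24 on F01, F05, F07 and F10, 7.44 on F09 and between 5.93 and 6.43 on F02, F03, F04 and F08.

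**Figure D2:**
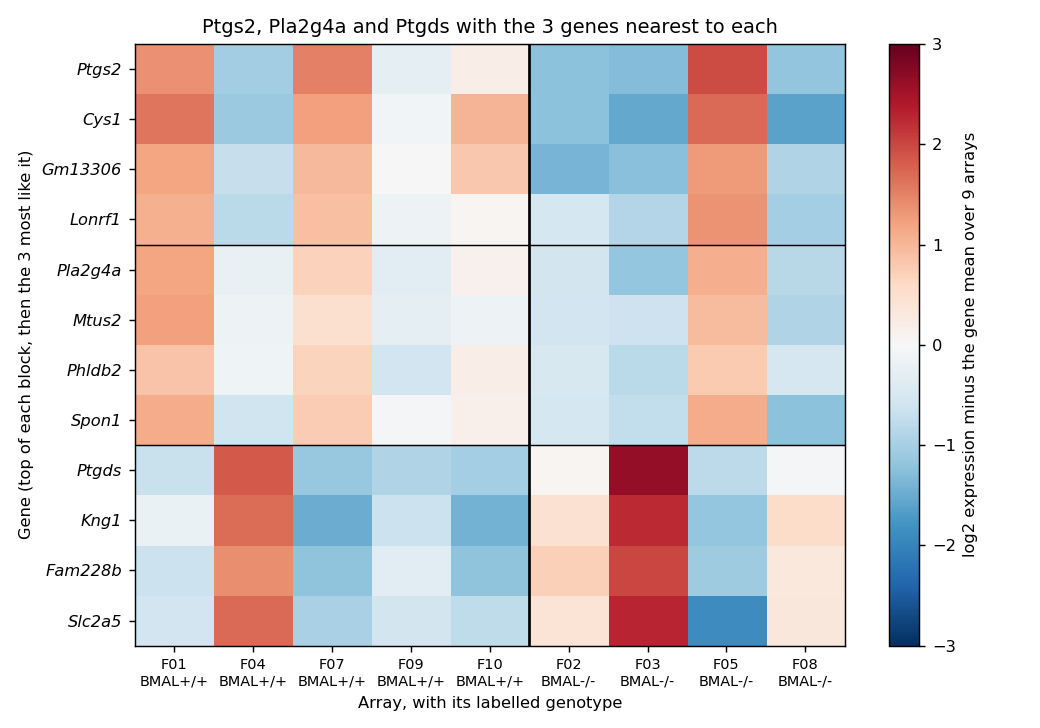
Log2 expression minus each gene's mean over the 9 arrays (colour) for Ptgs2, Pla2g4a and Ptgds, each above the 3 genes most like it, on each array with its labelled genotype (columns). F05 resembles F01 and F07 in the upper blocks, with Ptgs2 at 6.16, 5.58 and 5.73, and F04 resembles F03 in the lowest, with Ptgds at 6.46 and 7.25.

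The other terminal synthases follow. Ptgds, the lipocalin-type prostaglandin D synthase, read 3.95, 3.46, 3.70 and 3.60 on F01, F07, F09 and F10, and 4.68, 7.25 and 4.57 on F02, F03 and F08. F04 read 6.46 and F05 read 3.83. The 7 arrays did not overlap by group, F03 and F04 stood far above the rest, and F05 lay within the low arrays. The difference was 0.85 ± 0.82 (SE) as labelled, limma adjusted p = 0.557, and 1.82 ± 0.64 (SE) without F04 and F05, limma adjusted p = 0.208. Without F03 these differences were 0.12 and 0.94. The low arrays lay not far above the floor of the deposited values, which limits what the size of these differences can show. The second Ptgds probe set read 4.20 on F03 and between 2.89 and 2.99 on all other arrays, F04 included, so it showed F03 alone as high. The genes most like Ptgds over the 9 arrays were Kng1 (root mean square difference 0.40), Fam228b (0.43) and Slc2a5 (0.46).

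Ptges, the inducible microsomal prostaglandin E synthase, read 5.19 on F08 and between 2.97 and 3.68 on every other array, so a single array was high. Its differences of 0.43 ± 0.37 (SE) as labelled and 0.62 ± 0.44 (SE) without F04 and F05 did not pass (limma adjusted p = 0.504 and 0.358), and without F08 they were 0.00047 and 0.053. Both other Ptges probe sets averaged lower, between 2.04 and 2.99 on all arrays. On 1 of them the 7 arrays did not overlap, at 2.08 to 2.24 in BMAL-/- and 2.04 to 2.05 in BMAL+/+. Tbxas1, the thromboxane A synthase, read 4.33 on F10 and between 3.82 and 3.90 on the other 8 arrays, with differences of -0.06 and -0.08 (limma adjusted p = 0.754 and 0.715).

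Among the receptors, Ptger3 was the one with an unadjusted p under 0.05 without F04 and F05. It encodes EP3, a prostaglandin E2 receptor that mostly lowers cyclic AMP, and was brighter than 97.9% of all probe sets. It read 10.59, 10.61, 10.27 and 10.47 on F01, F07, F09 and F10, and 11.17, 11.24 and 11.83 on F02, F03 and F08. F04 read 11.26 and F05 read 10.44. The 7 arrays did not overlap by group, F04 lay within the 3 BMAL-/- arrays and F05 within the 4 BMAL+/+ arrays. As labelled the means were 10.64 ± 0.37 (SD, n = 5) and 11.17 ± 0.57 (SD, n = 4), a difference of 0.53 ± 0.29 (SE), limma adjusted p = 0.37. Without F04 and F05 they were 10.48 ± 0.16 (SD, n = 4) and 11.41 ± 0.36 (SD, n = 3), a difference of 0.93 ± 0.20 (SE) or 1.90-fold, which did not pass (limma adjusted p = 0.208). The second Ptger3 probe set, at most 3.48, had differences of the opposite sign, -0.19 and -0.23, with F09 and F07 highest.

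Ptger4 encodes EP4, a prostaglandin E2 receptor that raises cyclic AMP. It read between 6.88 and 8.24 on the BMAL+/+ arrays and between 6.29 and 8.55 on the BMAL-/- arrays, so the groups overlapped over nearly their whole range, and the difference was -0.12 ± 0.46 (SE) as labelled and -0.02 ± 0.57 (SE) without F04 and F05 (limma adjusted p = 0.891 and 0.983). Its second probe set stayed between 3.31 and 3.40. The highest and the lowest readings of Ptger4, F02 and F08, both came from arrays labelled BMAL-/-.

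Ptgir, the prostacyclin receptor, read between 4.83 and 5.27 on the BMAL+/+ arrays, 5.32, 4.40 and 4.53 on F02, F03 and F08, and 5.97 on F05. The BMAL-/- arrays reached both above and below the BMAL+/+ arrays. The difference was 0.02 ± 0.31 (SE) as labelled and -0.23 ± 0.25 (SE) without F04 and F05 (limma adjusted p = 0.97 and 0.529). Tbxa2r, the thromboxane receptor, read between 5.14 and 5.20 on all 9 arrays. Its SD of 0.017 was exceeded by all but 0.112% of the 1790 probe sets whose mean lay within 0.25 of its own, and its differences of 0.02 ± 0.07 and 0.02 ± 0.09 (SE) did not pass (limma adjusted p = 0.90 and 0.882). Whether so flat a reading is a steady transcript or a probe set without signal cannot be told from these values.

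Separation of the groups on the 7 arrays can be set against the whole table. BMAL-/- was lower without overlap for 3 of the 10 genes (Pla2g4a, Ptgs2 and Ptgis), against 2.59% of all probe sets, and higher without overlap for 3 (Ptgds, Ptger3 and Tbxa2r), against 14.9%. For Tbxa2r this was in effect a tie, as the highest BMAL+/+ and the lowest BMAL-/- arrays both read 5.151. F04 and F05 were not used in that comparison. At Ptgis and Ptger3, F04 lay within the range of the 3 arrays labelled BMAL-/-, and at Ptgds also, while at Pla2g4a it lay within the BMAL+/+ range and at Ptgs2 between the ranges. F05 lay within the range of the 4 arrays labelled BMAL+/+ at Pla2g4a, Ptgds and Ptger3 and above it at Ptgs2 and Ptgis.

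**Figure D3:**
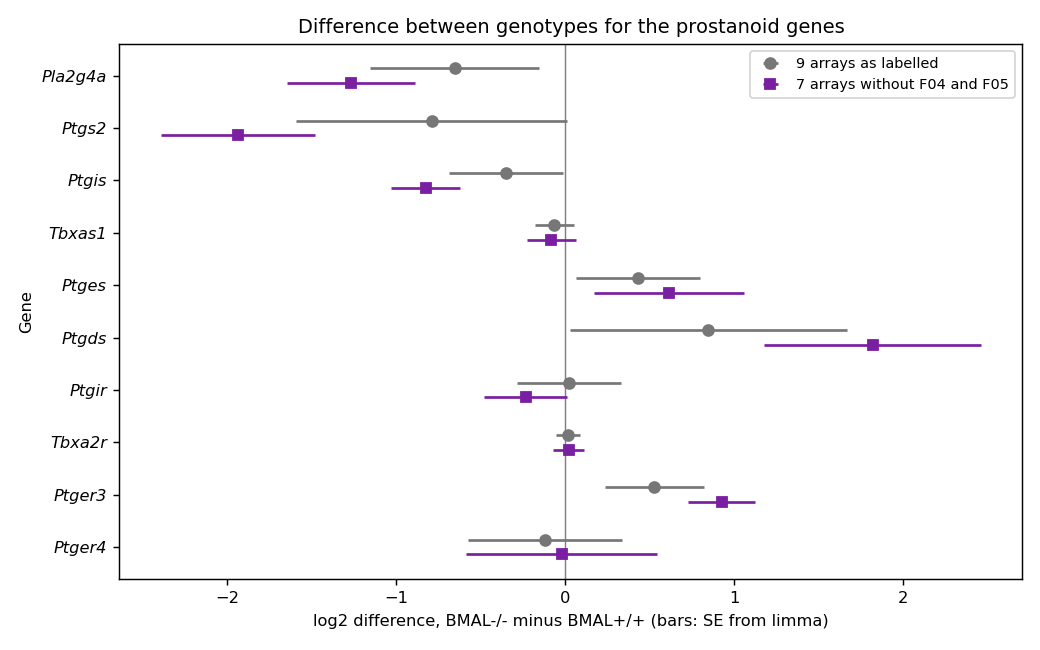
Log2 difference between arrays labelled BMAL-/- and BMAL+/+ (x axis) for each of the 10 prostanoid genes (y axis), with 9 arrays in grey and 7 arrays in purple; bars are the standard error from limma. Ptgs2, at -0.79 and -1.94, moved farthest to the left without F04 and F05, and Ptgds, at 0.85 and 1.82, farthest to the right.

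Other genes of prostanoid synthesis, breakdown, transport and reception were taken from a list of 23, of which 19 had a probe set of their own. Ptgs1, Ptges3, Akr1b3 and Pla2g4b had none and were not analysed here. None of the 19 passed in either comparison. At an unadjusted p under 0.05 there were 1 higher (Ptgdr) and 1 lower (Hpgd) as labelled, against 8.67% of all probe sets. Without F04 and F05 there were 2 higher (Ptgdr and Hpgds, both at the floor) and 1 lower (Hpgd). Of all probe sets, 20.0% were higher and 3.70% lower there. The median difference was 0.06 as labelled and 0.04 without F04 and F05.

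Hpgd, which encodes the dehydrogenase that inactivates prostaglandins, had the widest difference of the 19. It read 5.18, 6.42, 6.51 and 7.33 on F01, F07, F09 and F10, and 4.76, 4.64 and 4.50 on F02, F03 and F08. F04 read 4.61 and F05 read 5.32. The 7 arrays did not overlap by group, F04 lay among the BMAL-/- arrays and F05 just above F01. The difference was -1.21 as labelled (limma adjusted p = 0.37) and -1.73 ± 0.47 (SE) without F04 and F05 (limma adjusted p = 0.208). Its second probe set lay at the floor with a difference of 0.05.

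Among counterparts of the 10 genes, Ptges2, a further prostaglandin E synthase, had differences of 0.16 and 0.49, and Pla2g6, a calcium-independent phospholipase A2, 0.19 and 0.56. The receptor Ptger2 read 4.57 on F02 and between 2.72 and 3.21 elsewhere, with differences of 0.55 and 0.77 (limma adjusted p = 0.386 and 0.231). Hpgds, the haematopoietic prostaglandin D synthase, and the receptors Ptgfr, Ptgdr and Ptgdr2 lay below the median brightness, with differences from 0.01 to 0.12 in both comparisons.

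**Figure D4:**
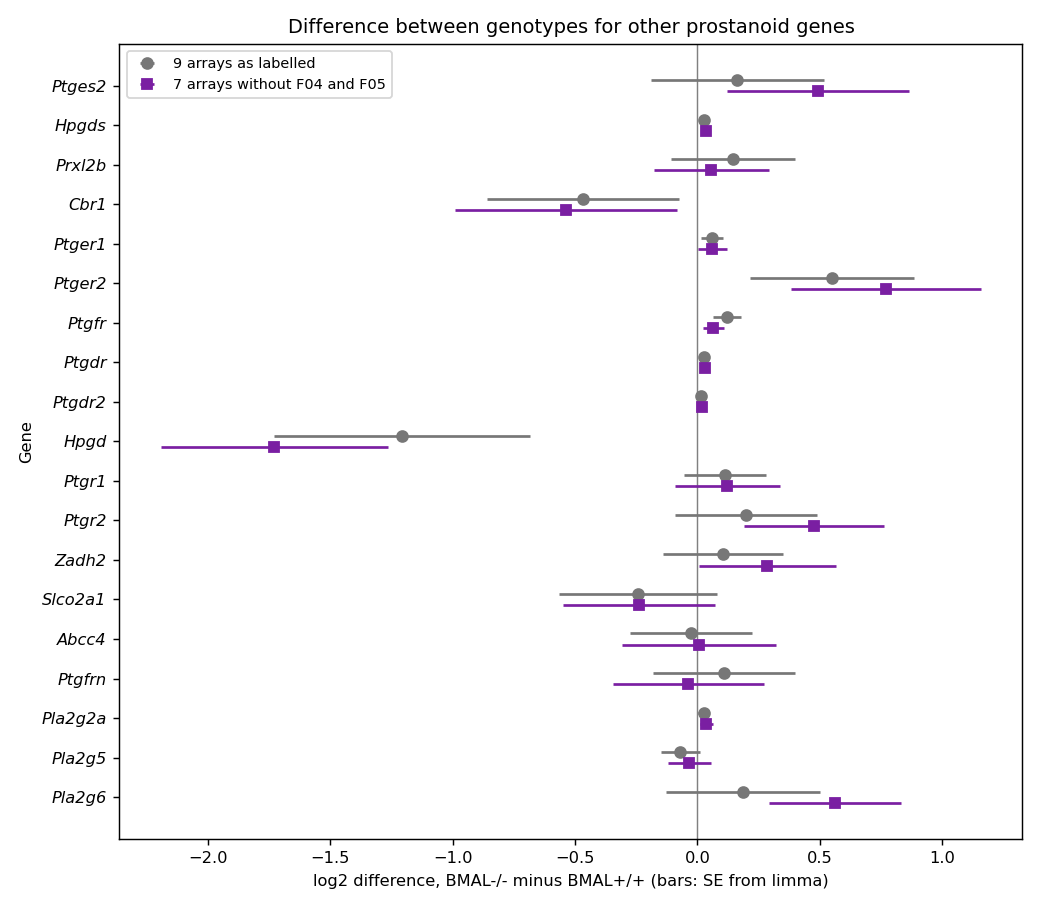
Log2 difference between arrays labelled BMAL-/- and BMAL+/+ (x axis) for the 19 other prostanoid genes (y axis), with 9 arrays in grey and 7 arrays in purple; bars are the standard error from limma. Hpgd, at -1.21 and -1.73, lies farthest from 0, followed by Ptger2 at 0.55 and 0.77.

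The leukotriene branch of the same arachidonic acid pathway gave no call. Of 10 listed genes 9 were measured, 0 passed, and 1 (Cysltr2, at the floor) had an unadjusted p under 0.05 in each comparison. Of all probe sets, 8.67% did as labelled and 23.7% without F04 and F05. Alox5ap, which presents arachidonic acid to 5-lipoxygenase, had differences of -0.41 and -0.57. Alox12 had 0.36 and 0.44, and Ltb4r1 and Cysltr1, both near the floor, had differences of at most 0.11.

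Of 12 genes that carry the receptors' signals, 0 passed. As labelled, none had an unadjusted p under 0.05, against 8.67% of all probe sets. Without F04 and F05, 2 were lower at that p (Adcy5 and Plcb4), against 3.70% of all probe sets, and 1 was higher (Prkaca), against 20.0%. All 12 genes lie above the median brightness, where these shares were 7.23% and 7.07%. Adcy5, an adenylyl cyclase that makes cyclic AMP, read 10.10, 9.78, 9.65 and 9.51 on F01, F07, F09 and F10, and 8.27, 8.62 and 8.86 on F02, F03 and F08. F04 read 8.85 and F05 read 9.83. The groups of the 7 arrays did not overlap, with F04 and F05 each inside the range of the other label. The difference was -0.69 as labelled (limma adjusted p = 0.37) and -1.18 ± 0.21 (SE) without F04 and F05 (limma adjusted p = 0.208). Plcb4, a phospholipase C, had differences of -0.31 and -0.62, Prkaca, the catalytic subunit of protein kinase A, 0.16 and 0.36, and Gnai2, the inhibitory G protein, -0.33 and -0.67. The 3 other probe sets of Adcy5 had differences of -0.14, -0.09 and 0.04 without F04 and F05, far smaller than its brightest, and that of Prkaca -0.21, of the opposite sign. For Plcb4 the other probe sets had -1.51, -1.91, -0.26 and -0.03.

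Markers of cell types moved with some of these genes. The mean of the 5 fibroblast markers was 10.02 to 10.45 on F01, F07, F09 and F10 and 10.29 on F05, and 8.07 to 9.66 on F02, F03 and F08 and 8.89 on F04. The same 5 arrays were high and the same 4 low at Ptgis, Ptgs2, Hpgd and Adcy5, and the reverse held at Ptger3 and Ptgds. This is also the split at the clock gene Nr1d2, so it is not particular to any of these genes. The 6 macrophage markers read 6.95 to 8.32 and, on F05, 7.41, against 5.81 to 6.49 and, on F04, 6.44. For smooth muscle the mean was 11.35 to 11.89 on F01, F07, F09 and F10 and 11.77 on F05, and 10.31 and 10.51 on F03 and F02. F04 lay between these ranges, and F08, at 11.48, inside the upper one. With all 9 arrays as labelled, every list overlapped between the groups, with fibroblast markers at 8.89 to 10.45 in BMAL+/+ and 8.07 to 10.29 in BMAL-/-. Platelet markers read 4.11 to 4.88 and 4.37 to 4.99 in BMAL+/+ and BMAL-/-. On the 7 arrays the endothelial, platelet, adipocyte, mast cell and heart muscle lists still overlapped. Mast cell markers did so only just, at 4.41 on F03 and 4.39 on F01. Without F04 and F05, 4 of 5 fibroblast, 4 of 6 macrophage, 3 of 6 smooth muscle, 3 of 5 mast cell, 3 of 6 endothelial and 1 of 5 heart muscle markers were lower at an unadjusted p under 0.05, and 1 endothelial marker was higher, with 0 of 5 platelet and 0 of 4 adipocyte markers. In that comparison, 3.70% of all probe sets were lower and 20.0% higher at that p. Above the median brightness these shares were 7.23% and 7.07%. The part of tissue composition in the differences of Pla2g4a, Ptgs2, Ptgis and of Ptger3 and Ptgds was not tested.

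**Figure D5:**
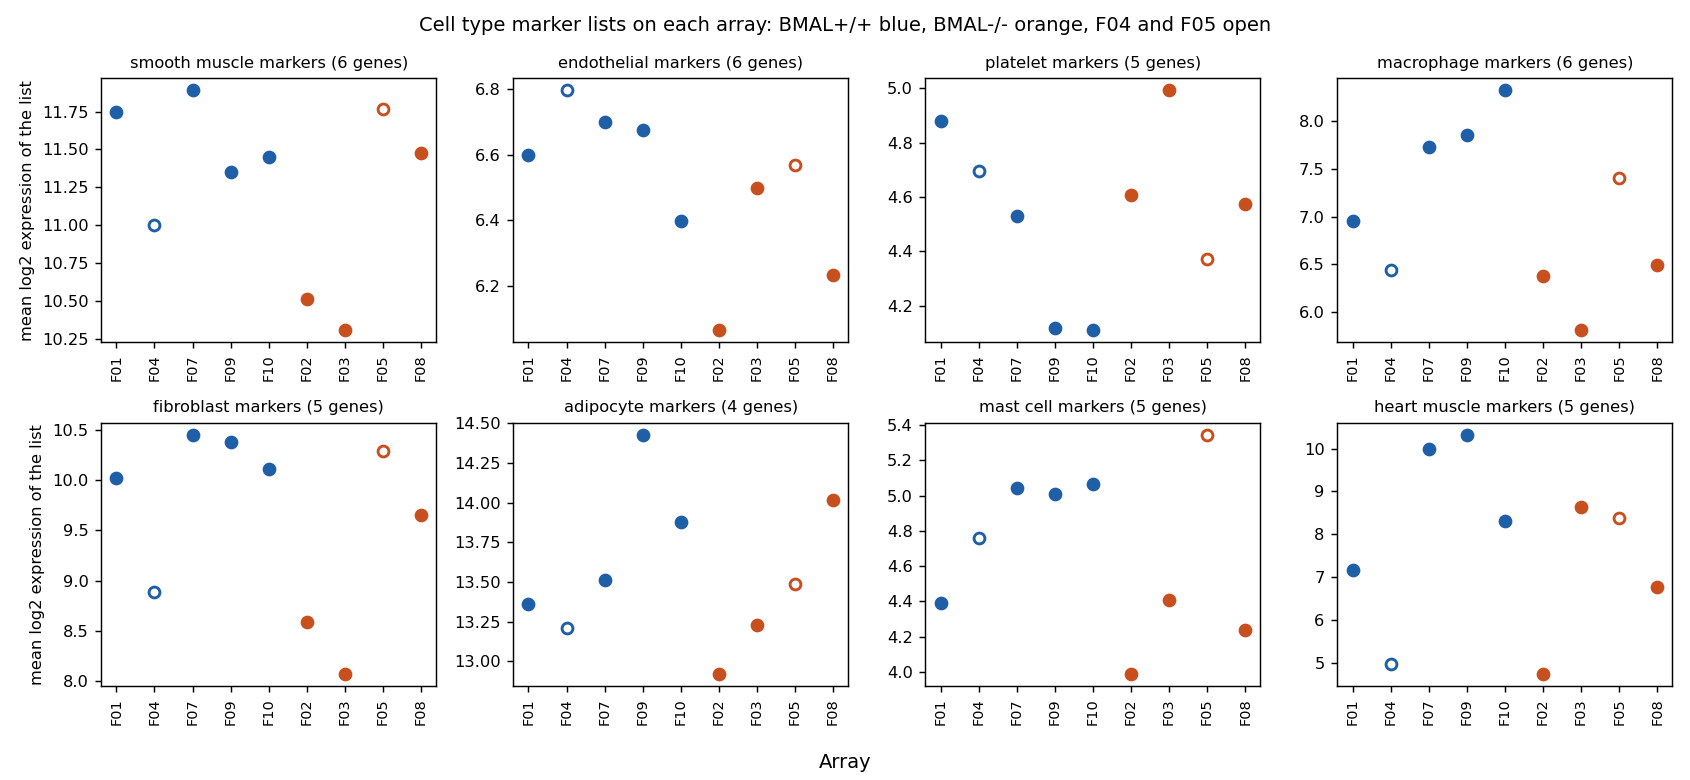
Mean log2 expression of 8 lists of cell type markers (y axis, a scale per list) on each array (x axis), with BMAL+/+ arrays in blue, BMAL-/- arrays in orange and F04 and F05 as open circles. Fibroblast markers lie at 8.89 on F04 and 10.29 on F05, each among the arrays of the other label.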

How the data were processed

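Per the labels, aortic RNA from each of 9 mice was hybridised to 1 Affymetrix array. The deposited values are log2 expression per probe set, made by the authors. GCRMA and MAS5 are listed, with no role, per the submitters' processing notes; other settings are not given in the sources used here. Values cluster at a floor near 2 to 3, where differences are compressed. No 2 arrays were identical. The number of arrays limits the precision.

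After removal of 64 control probe sets, genotype was fitted to 45037 probe sets with limma 3.58.1 in R 4.3.3 (lmFit, eBayes with trend), two-sided, with Benjamini-Hochberg adjustment over all of them; the test was checked on simulated data. Symbols were updated through RefSeq (GRCm38.p6). The 10 genes, the other lists and the removal of F04 and F05 were chosen with earlier results of these data known. Genes of the other lists are named by the smallest p (6 of the prostanoid list and 4 of each of the others in each comparison), with Ptges2, Hpgds, Hpgd, Ptgfr and Ptger2 always, and for Ptgs2, Ptgds and Pla2g4a, whose SD over the arrays was largest, the 3 genes with the smallest root mean square difference. Alternatives were other scalings, variance models, array weights, a brightness filter, F01 as BMAL-/-, other probe sets and leaving out arrays.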

Additional observations from a re-analysis of the deposited data

Results flagged for a closer look

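Chance flags about 1 in 20 groups, and 6 of the 20 groups examined (10 genes in 2 genotypes) held an array far from the others of its label. Ptgs2 read 6.16 on F05, labelled BMAL-/-, where the next array, F08, read 3.02. Ptgds read 6.46 on F04, labelled BMAL+/+, where the next, F01, read 3.95. Both arrays had clock gene levels of the other label. Ptges was flagged in both groups, at 2.97 on F01 against 3.49 on F10 in BMAL+/+, and at 5.19 on F08 with F02 the next in BMAL-/-. Tbxas1 read 4.33 on F10 against 3.86 on F04 in BMAL+/+. Tbxa2r read 5.20 on F02 against 5.15 on F05 in BMAL-/-, a gap of a few hundredths of a log2 unit.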

How the results depend on the processing

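No paired analysis was possible because the groups share no replicate numbers. With the 9 arrays as labelled, 0 of the 10 genes passed after adjustment under every alternative run. At an unadjusted p under 0.05, array weights gave 1 (Ptgir), against 27.4% of all probe sets. Leaving out F04 and F05 together gave 5, against 23.7% (with 4 of all probe sets past adjustment). Leaving out 1 array gave 0 to 4, the 4 without F05, against 10.8% there. Array weights turned Pla2g4a to 0.24, Ptgs2 to 0.41, Ptgis to 0.17 and Ptges to -0.0029, and took Ptger3 to 0.047 and Ptgir to 0.75. Centring turned Ptgir to -0.018 and Tbxa2r to -0.022, and leaving out F04 and F05 turned Ptgir to -0.23. The other probe sets gave 0.020 for Ptgs2, -0.19 for Ptger3 and 0.026 for Ptger4. Over arrays left out singly, Tbxas1 ranged from -0.091 to 0.0355, Ptgir from -0.28 to 0.24 and Ptger4 from -0.46 to 0.30.

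Without F04 and F05, array weights put 5 genes past adjustment, among 15448 probe sets. Leaving out 1 further array gave 0 to 3, the 3 without F08, among 16445 probe sets. With F01 counted as BMAL-/-, as its source name says, 1 gene (Ptger3) had an unadjusted p under 0.05, against 8.35% of all probe sets. Ptger4, close to 0, turned to 0.075 under quantile normalization, 0.30 with array weights, 0.028 with F01 as BMAL-/- and 0.038 on its other probe set, and Tbxa2r to -0.033 under centring. The other probe sets gave 0.0265 for Ptgs2 and -0.23 for Ptger3. Over arrays left out singly, Tbxas1 ranged from -0.12 to 0.045 and Ptger4 from -0.54 to 0.59. The cause of these changes was not tested. Signals near the floor limit what Ptgs2, Ptges, Ptgds, Tbxas1 and the second probe sets can show.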
